A study of Mus musculus with 21 samples.

Results

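The cells described here are neutrophils from the host tissue of a mouse melanoma model, picked out of single-cell RNA-sequencing libraries by their transcripts. A cell was taken when it carried a unique molecular identifier (UMI, 1 captured RNA molecule) of at least 3 of the 5 genes S100a8, S100a9, Csf3r, Cxcr2 and Retnlg, with Csf3r or Cxcr2 among them, and no UMI of Col1a2, Pecam1, Cd79a or C1qa. Membership was thus chosen by the counts of these 9 genes, whose own levels are no finding here. This selected 7567 cells, called neutrophils, among 51511 cells of 12 libraries. They were 7188 from unchallenged lung, 301 from the tumor microenvironment (TME) of lung metastases and 78 from the TME of primary tumors. Of the 7567 cells, 6082 (80.4%) came from unchallenged lung replicate 6, whose selected and remaining cells were alike in UMIs per cell and mitochondrial share. The name neutrophil is least certain for these 6082 cells. The host mice carried the mT/mG reporter, so that their cells are marked by the red protein tdTomato. Fragments of MT-ret melanoma were transplanted under the skin of young adult male and female mice, the primary tumor was resected, and lung metastases were collected later. Unchallenged lung came from mice of the reporter line without tumor. All suspensions were cryopreserved, thawed and sorted for live host cells by tdTomato, in some libraries with leukocytes that carry CD45 depleted as well, and the gate of a given library is not stated in the labels or methods. Neutrophils carry CD45, so the number of neutrophils in a library cannot be told apart from its gate.

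Neutrophils are short-lived phagocytes made in bone marrow, where granule proteins are produced in an ordered series of stages before the cells enter the blood. They answer bacterial products, complement and cytokines through surface receptors, carry ready-made proteases and antimicrobial proteins in granules, and are a major source of IL1β and of chemokines that attract further leukocytes. The lung holds a large resident pool of them in its capillaries, and in tumors they have been described with programs of hypoxia, glycolysis, lysosomal genes and chemokine production.

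The number of neutrophils differed widely between libraries. In unchallenged lung they were 31 of 1326, 43 of 4085, 1032 of 6009 and 6082 of 25966 cells in replicates 1, 4, 5 and 6. In lung metastasis TME they were 151 of 785, 9 of 661, 34 of 5166 and 107 of 1036 cells in replicates 1-3, 4, 5 and 6. Replicates 1-3 of a tumor tissue are 1 sample in the labels and were summed as 1 library, though the metadata name these cells by replicate and mouse. How many of them came from each mouse is not given here. In primary tumor TME they were 24 of 668 and 54 of 3123 cells in replicates 1-3 and 4, and 0 of 303 and 0 of 2383 in replicates 5 and 6, which allows shares of up to 0.990% and 0.126% for counting error alone. As shares these are 1.05 to 23.4% in lung, 0.658 to 19.2% in metastasis and at most 3.59% in primary tumor, so that the ranges of lung and metastasis overlap almost entirely. Libraries with at least 20 neutrophils, 9 in all, entered the tests, and replicate 4 of the metastasis, with 9 neutrophils, was held out. Any 2 libraries shared 0 to 48 cell barcodes.

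The label was checked with 20 neutrophil genes that the selection did not use. In each of the 10 libraries with neutrophils, 19 or 20 of these genes were higher in the selected cells than in the remaining cells, and their summed level was 2.41 to 39.6 times that of the remaining cells. Ly6g, which gives the surface protein commonly used to stain mouse neutrophils, was not detected in metastasis replicate 4 and primary tumor replicates 1-3. The median depth of the selected cells was 1553 to 3643 UMIs per library. Unchallenged lung replicate 6, the largest library, stands apart: its median mitochondrial share was 5.21% against 0.223 to 0.889% in the other libraries, and its ratio of the 20 genes was the lowest (2.41). Its remaining cells were alike in mitochondrial share (6.03%) and depth (1599 UMIs, against 1623.5 in the selected cells). Genes of airway club cells summed to 17279 CPM in its selected and 15208 CPM in its remaining cells, and the 20 neutrophil genes to 3843 and 1593 CPM. The name neutrophil is least certain for this library. The main tests were therefore repeated without it. S100a8 and S100a9, which belong to the selection and so are given as a description, together took a median of 1.62 to 8.79% of the UMIs of a neutrophil in 9 libraries and 0.836% in that one, where 2650 of 6082 selected cells reached 1%. At the edge of the selection, cells with exactly 3 of the 5 genes (2089 in lung, 45 in metastasis and 9 in primary tumor) had a median S100a8 and S100a9 share of 0.414, 0.867 and 1.33%, and cells just outside with 2 of the 5 had 0.0445, 0.0245 and 0.0117%, a difference that the rule itself favors.

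**Figure D1:**
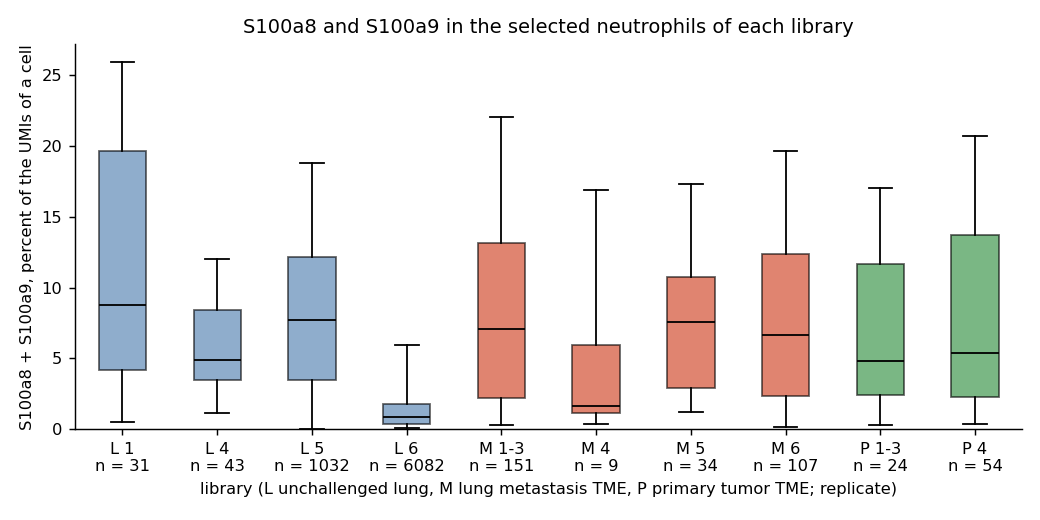
Percent of the UMIs of a cell that are S100a8 or S100a9 (y axis) in the selected neutrophils of each library (x axis, n is the number of neutrophils). Boxes span the quartiles with the median as a line, and whiskers reach the lowest and highest 5% of cells. The median is 0.836% in unchallenged lung replicate 6 and 1.62 to 8.79% in the other libraries.

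RNA of other cells was present in the droplets taken as neutrophils and has to be read beside each result. The summed level of 8 melanoma genes in the neutrophils was 0 to 6.28 counts per 1000000 UMIs of the summed cells (CPM) in unchallenged lung, 527 to 10106 CPM in the 3 metastasis libraries tested and 520 to 618 CPM in primary tumor. The neutrophils carried Dct, a melanocyte pigment enzyme, at 27.0 to 61.4% of its level in the remaining cells of the same tumor library. The summed level of 4 club cell genes of the airway was 279, 13.0, 6465 and 17279 CPM in lung replicates 1, 4, 5 and 6. This summed level was 323 to 7242 CPM in metastasis and 0 in primary tumor, where all 4 had no UMI. That of 18 monocyte and macrophage genes was 1604 to 2735 CPM in lung, 823 to 2263 CPM in metastasis and 1736 to 3331 CPM in primary tumor. Neutrophils without a UMI of any of the 8 melanoma genes numbered 50 of 151 in metastasis replicate 1-3 and 20 of 54 in primary tumor replicate 4, but 0 of 34 and 0 of 107 in metastasis replicates 5 and 6. Values of those 50 and 20 cells, called melanoma-free for lacking these UMIs, are given below with no test. A cell may lack these UMIs by sampling, so the name does not mean free of RNA of other cells. Ptgds was still at 40.5 CPM (5 UMIs) in the 50, against at most 0.248 CPM in a lung library. C1qb was at 255 CPM (15 UMIs) in the 20, against at most 8.68 CPM.

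Neutrophil counts were summed per library and 3269 genes were tested. Against unchallenged lung, 40 genes differed in metastasis neutrophils (1.22% of the genes tested, edgeR quasi-likelihood test, Benjamini-Hochberg adjusted p below 0.05), 38 higher (1.16%) and 2 lower (0.0612%). In primary tumor neutrophils 14 genes differed (0.428%), 13 higher (0.398%) and 1 lower (0.0306%). These comparisons share the same 4 lung libraries. Between metastasis and primary tumor no gene differed by edgeR, 134 genes (4.10%) had an unadjusted p below 0.05, 80 of them higher in metastasis, and DESeq2 called 2. Without unchallenged lung replicate 6 the calls numbered 49 and 19, and 33 of the 40 and 13 of the 14 genes were among them. The counts rest on single libraries: without unchallenged lung replicate 5 they fell to 3 and 1, and without metastasis replicate 6 the first fell to 3. In summed counts, fewer neutrophils that transcribe a gene and less of its RNA per neutrophil cannot be told apart.

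Of the 38 genes higher in metastasis, 14 had a higher mean level in the neutrophils than in the remaining cells of the same libraries: Wfdc17, Ccl4, Igfbp6, AA467197, Smox, Hilpda, Ero1l, Rhov, E230032D23Rik, Rgs1, Sra1, Cstb, Atp6v0c and Serpinb1a. The other 24 were at least as high in the remaining cells, among them 5 of the melanoma list (Dct, Syt4, Cited1, Cst6 and Tyrp1) and Ptgds, Cpe and Sparc. In the 50 melanoma-free neutrophils of metastasis replicate 1-3, 29 of the 38 genes and 14 of these 14 were above every unchallenged lung library, where 19.0% of all genes tested were. The 5 melanoma genes among the 38 could not be, as their absence selected the cells. These cells belong to a library of the test, so their counts are not independent of the calls. In the held-out metastasis replicate 4, 21 of the 38 genes (55.3%) were above every lung library, and 10 of the 14 (71.4%), where 25.1% of all genes tested were. Its neutrophils hold 38019 UMIs, so that 1 UMI is above the highest lung value of genes such as Rhov (4.63 CPM) and Ptgds (0.248 CPM). The 8 melanoma genes summed to 552 CPM in these neutrophils, and the part of RNA of other cells in the 21 was not tested. The 14 were taken by their height in the metastasis neutrophils, which favors the higher share among them.

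**Figure D2:**
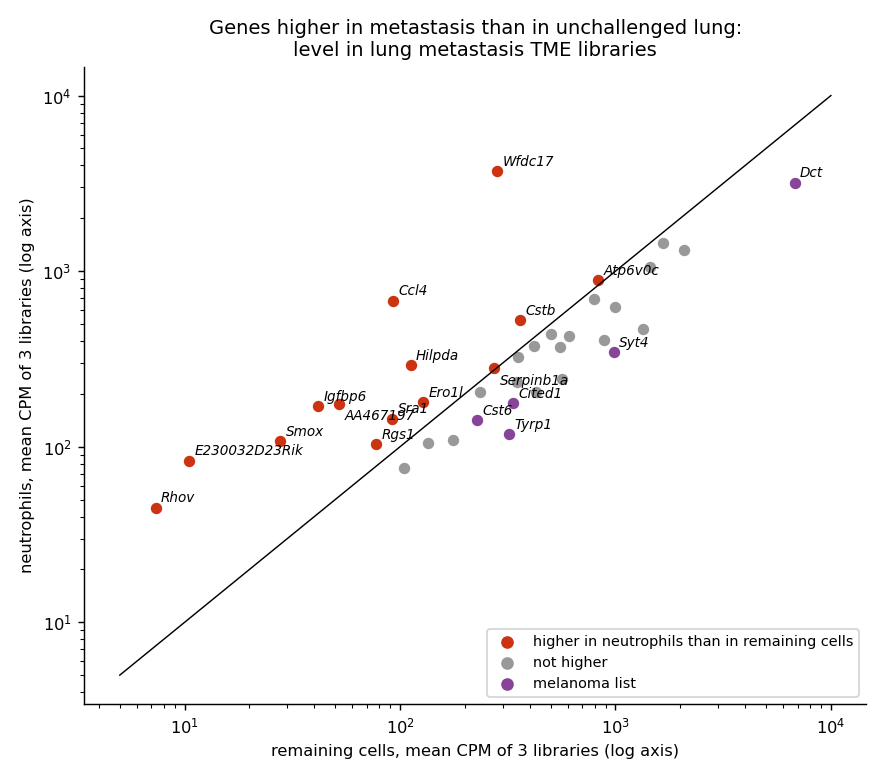
The 38 genes higher in metastasis than in unchallenged lung, by their mean CPM over 3 lung metastasis TME libraries in the remaining cells (x axis, log scale) and in the neutrophils (y axis, log scale). The line marks equal levels. Wfdc17 (3704 against 283 CPM) and Ccl4 (677 against 92.7 CPM) lie far above it, and the melanoma genes lie below it.

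Wfdc17, a small secreted protein of the whey acidic protein family expressed by myeloid cells (chr11:83703991-83706268, plus strand, GRCm38), was higher in every metastasis library. In unchallenged lung neutrophils it was at 1075, 704, 714 and 227 CPM in replicates 1, 4, 5 and 6, and in metastasis at 3712, 4395 and 3006 CPM in replicates 1-3, 5 and 6. The groups do not overlap, as for 5.78% of all genes tested in this direction (5.29% in the other), and the held-out replicate 4 (2025 CPM) is above every lung library too. The log2 fold change was 2.53 ± 0.50 (SE, edgeR adjusted p = 0.0272) and 2.26 without lung replicate 6 (edgeR adjusted p = 0.0138), with adjusted p between 2.26e-05 and 0.132 over all 23 alternatives. The remaining cells of the 3 metastasis libraries held 637, 9.27 and 202 CPM, and the melanoma-free neutrophils of replicate 1-3 held 3827 CPM. In primary tumor neutrophils it was at 2809 and 1201 CPM, above lung but not called (log2 fold change 1.59 ± 0.54, edgeR adjusted p = 0.273).

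Igfbp6, a secreted protein that binds insulin-like growth factor 2 (chr15:102144362-102149511, plus strand), was at 20.7, 0, 10.1 and 20.7 CPM in the lung libraries and at 158, 165 and 187 CPM in metastasis. It differed by 3.63 ± 0.49 on the log2 scale (edgeR adjusted p = 0.00308), by 4.20 without lung replicate 6 (edgeR adjusted p = 0.00482), and kept an edgeR adjusted p of 0.00757 when the neutrophil richest in a gene was left out in every library. Primary tumor neutrophils had 44.1 and 21.96 CPM, close to the lung range, and the test against lung was not passed (log2 fold change 1.12 ± 0.79, edgeR adjusted p = 0.654). Metastasis and primary tumor did not differ past the threshold either (log2 2.51 ± 0.71, edgeR adjusted p = 0.976). The remaining cells held 8.35 to 60.8 CPM in lung, 21.6, 67.3 and 36.5 CPM in the tested metastasis libraries and 34.8 to 349 CPM in primary tumor.

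Ccl4, a chemokine that draws monocytes and lymphocytes (chr11:83662584-83664683, plus strand), was at 10.3, 26.1, 146 and 66.5 CPM in lung, 606, 296 and 1128 CPM in metastasis and 4839 and 1450 CPM in primary tumor. It was higher in metastasis by 3.31 ± 0.65 (log2, edgeR adjusted p = 0.0272) and in primary tumor by 5.46 ± 0.72 (edgeR adjusted p = 0.00639), and both held without lung replicate 6 (edgeR adjusted p = 0.0433 and 0.0146). Few cells carry these sums: 1 neutrophil held 89.7% of the Ccl4 UMIs in primary tumor replicate 1-3 and 53.0% in replicate 4. With the richest neutrophil left out in every library, the differences were 3.12 and 3.56 with edgeR adjusted p of 0.0590 and 0.0528.

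Of the other genes named for metastasis, Ero1l, an oxidase of the endoplasmic reticulum, rose by 3.30 ± 0.61 (log2, edgeR adjusted p = 0.0177), from 0 to 27.7 CPM in lung to 110, 32.9 and 395 CPM. AA467197, also known as Nmes1, rose by 2.35 ± 0.48 (edgeR adjusted p = 0.0306), from 19.2 to 58.7 CPM to 115, 98.8 and 313 CPM. Serpinb1a, an inhibitor of neutrophil elastase and cathepsin G, rose by 3.66 ± 0.73 (edgeR adjusted p = 0.0272), from 6.52 to 40.7 CPM to 69.5, 461 and 308 CPM, but its level in the remaining cells (68.8 to 391 CPM) was about the same, and 1 cell held 64.3% of its UMIs in replicate 5. Of Rgs1, a regulator of G protein signaling, 1 neutrophil held 85.9% of the UMIs of replicate 6. Rhov had a UMI in 9, 1 and 17 neutrophils of replicates 1-3, 5 and 6. Without lung replicate 6, 8 of the 9 genes named for metastasis were still called, and Rhov was not (edgeR adjusted p = 0.0596). Without metastasis replicate 6, 0 of the 8 then tested were called (edgeR adjusted p between 0.0847 and 0.252), and Ero1l fell to 2.06 and AA467197 to 1.61 on the log2 scale. Without lung replicate 5, 0 of the 9 were called (edgeR adjusted p between 0.0563 and 0.132). Without lung replicate 4, lung replicate 1 or metastasis replicate 5, 3, 6 and 5 of the 9 were called, and without either primary tumor library 7 were, AA467197 and Nr4a1 being the 2 lost. With the run number in the name of each library as a covariate Rhov, AA467197 and Nr4a1 were not called (edgeR adjusted p between 0.0501 and 0.0785). What a run stands for is not stated in the labels. With the replicate number as a block Rhov, Ccl4, Ero1l, Wfdc17 and AA467197 were not called (edgeR adjusted p between 0.0710 and 0.441). With the richest neutrophil left out in every library Serpinb1a, Ccl4, AA467197 and Nr4a1 were not called (edgeR adjusted p between 0.0590 and 0.122), and Rhov and Rgs1 were not tested. With at least 4 of the 5 markers in a cell Serpinb1a, Rgs1, Ccl4 and AA467197 were not called (edgeR adjusted p between 0.0505 and 0.232), and Rhov was not tested. With at least 1% S100a8 and S100a9 in a cell Ccl4 and AA467197 were not called (edgeR adjusted p of 0.0967 and 0.0699), and Rhov and Rgs1 were not tested.

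Nr4a1, an orphan nuclear receptor induced within minutes of cell activation (chr15:101254269-101274795, plus strand), was the gene named as lower in metastasis. It is also high in patrolling monocytes, and whether monocyte RNA has a part in its level was not tested. It was at 134, 293, 283 and 234 CPM in lung and at 83.8, 32.9 and 35.9 CPM in metastasis, a log2 difference of -2.06 ± 0.41 (edgeR adjusted p = 0.0272), and -2.05 without lung replicate 6 (edgeR adjusted p = 0.0288). Held-out replicate 4 had 78.9 CPM, below every lung library. Primary tumor neutrophils were as low, at 44.1 and 36.6 CPM, but just missed the threshold (log2 -2.55 ± 0.56, edgeR adjusted p = 0.0653). The remaining cells of lung carried 92.6 to 289 CPM, and those of the 3 metastasis libraries 14.0 to 113 CPM. On the monocyte and macrophage list, to which Nr4a1 belongs, it was the only call among 11 genes tested in metastasis. Of these 11, 3 had a log2 fold change above 0, where 47.0% of all genes did. Their median was -0.78, against -0.04 for all genes, and -0.36 without lung replicate 6. Over the immediate early and heat shock list as a whole, to which Nr4a1 does not belong, 0 of 26 genes tested were called in metastasis and 5 had a log2 fold change above 0 (median -0.36, against -0.04 for all genes), where 1.16% of all genes were called as higher, 0.0612% as lower, and 47.0% were above 0. In primary tumor 1 of the 26 was called (Ier3, where 0.398% of all genes were higher), and 13 were above 0, where 46.7% of all genes were.

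**Figure D3:**
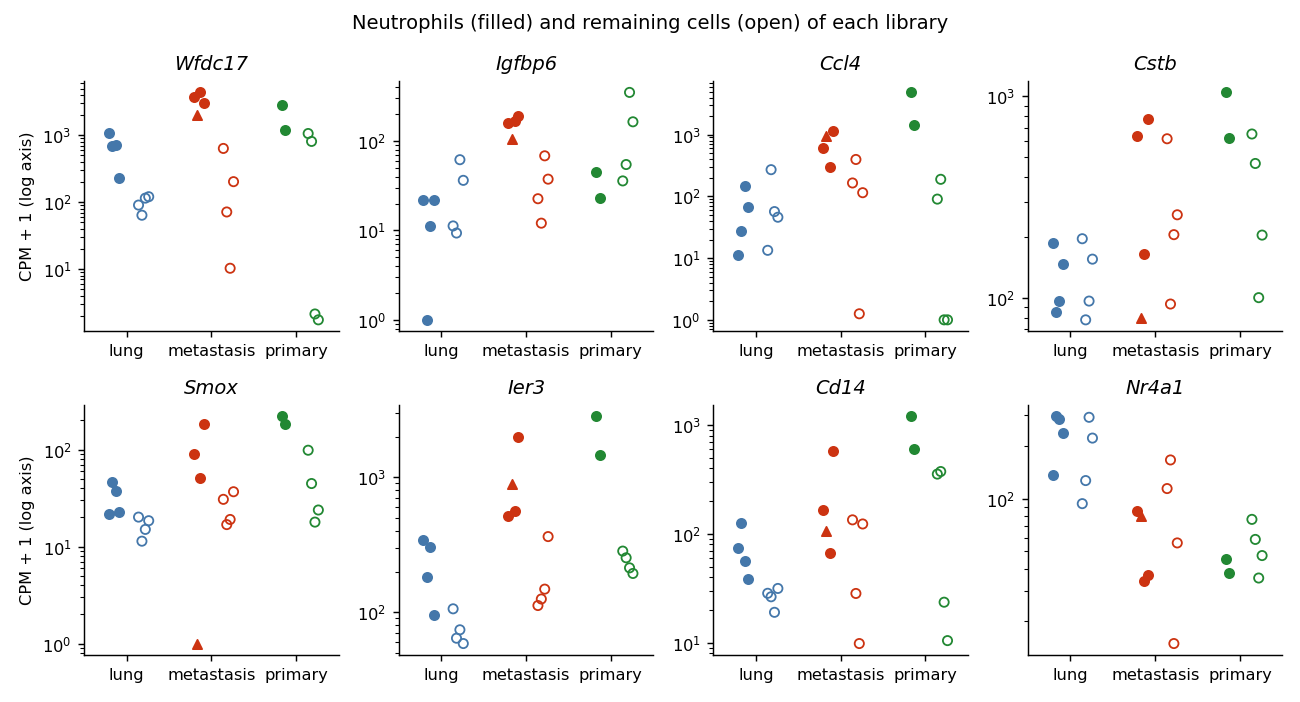
Level of 8 named genes (y axis, CPM + 1, log scale) in the summed neutrophils (filled) and in the remaining cells (open) of each library, by tissue. The triangle is metastasis replicate 4, which was not tested. Wfdc17 and Igfbp6 lie above lung in all 4 metastasis libraries, Ier3 and Cd14 lie above lung in both primary tumor libraries, and Nr4a1 lies below lung in every tumor library.

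In primary tumor 8 genes were named as higher and 1 as lower. Ier3, an immediate early gene that limits NF-kB signaling (chr17:35821684-35822923, plus strand), was at 341, 183, 301 and 94.5 CPM in lung and 2839 and 1464 CPM in primary tumor (log2 fold change 3.28 ± 0.60, edgeR adjusted p = 0.0320). Cd14, the co-receptor for bacterial lipopolysaccharide, was at 72.3, 124, 55.6 and 37.1 CPM in lung and 1206 and 600.3 CPM in primary tumor (3.79 ± 0.66, edgeR adjusted p = 0.0320). Both were spread over many cells, with the richest neutrophil holding at most 30.5% of the UMIs in either primary tumor library, and in both genes the groups do not overlap, as for 10.9% of all genes tested in this direction (13.2% in the other). Their metastasis values were 513, 560 and 1993 CPM for Ier3 (edgeR adjusted p = 0.0827) and 165, 65.8 and 572 CPM for Cd14 (edgeR adjusted p = 0.143). Ier3 in metastasis replicate 6 lies between the 2 primary tumor values, and Cd14 in metastasis replicate 5 lies within the lung range. The remaining primary tumor cells of the 2 libraries held 283 and 252 CPM of Ier3 and 353 and 373 CPM of Cd14.

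Smox, which oxidizes spermine, rose from 20.7 to 45.6 CPM in lung to 221 and 183 CPM in primary tumor (log2 fold change 2.76 ± 0.49, edgeR adjusted p = 0.0320), and it was called in metastasis as well (88.6, 49.4 and 185 CPM, 2.00 ± 0.43, edgeR adjusted p = 0.0375), there not without lung replicate 6 (edgeR adjusted p = 0.0692). Cstb, the cytosolic cathepsin inhibitor cystatin B, went from 84.8 to 186 CPM to 1044 and 622 CPM (2.74 ± 0.51, edgeR adjusted p = 0.0320). Atp6v0c, a subunit of the proton pump that acidifies lysosomes, went from 292 to 434 CPM to 1633 and 1040 CPM (2.04 ± 0.37, edgeR adjusted p = 0.0320). For Cstb and Atp6v0c the remaining cells of the 2 primary tumor libraries were nearly as high (464 to 649 CPM and 883 to 1116 CPM).

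Cxcl3, a neutrophil-attracting chemokine, had the largest fold change among the 13 genes called as higher in primary tumor and rests on very few cells. It was at 0, 0, 3.18 and 1.07 CPM in lung and at 2706 and 36.6 CPM in primary tumor, and 1 neutrophil held 75.5% of the UMIs of the first value. Thbs1, the matrix protein thrombospondin 1, was at 18.5 to 45.6 CPM in lung and 515 and 732 CPM in primary tumor (log2 fold change 4.35 ± 0.83, edgeR adjusted p = 0.0367), with 65.7% of the UMIs of replicate 1-3 in 1 cell, and was not called without lung replicate 6 (edgeR adjusted p = 0.0670). Ccdc88c, a scaffold of Wnt and G protein signaling (chr12:100911523-101029056, minus strand), was the gene that fell, from 155, 130, 194 and 186 CPM in lung to 14.7 and 29.3 CPM (log2 -2.77 ± 0.50, edgeR adjusted p = 0.0320). The primary tumor values of Ccdc88c rest on very few UMIs, as the neutrophils of these libraries held 67992 and 136598 UMIs in all. Its metastasis values, 74.2, 82.3 and 66.7 CPM, lie between, without a call (edgeR adjusted p = 0.141). In the 20 melanoma-free neutrophils of primary tumor replicate 4, Ier3 (1291 CPM), Cd14 (951 CPM), Thbs1 (866 CPM), Smox (255 CPM, 15 UMIs) and Ccl4 (985 CPM) stayed above every lung library and Ccdc88c (17.0 CPM, 1 UMI) below. These cells belong to a library by which the genes were called and named, which favors this outcome. The share of all genes tested that lay above lung in these cells is not given. Of the 9 genes named for primary tumor, Cxcl3 and Ccl4 alone were called with the run number as a covariate, with an edgeR adjusted p between 0.0937 and 0.181 for Thbs1, Cd14, Ier3, Smox, Cstb, Atp6v0c and Ccdc88c. With the replicate number as a block the edgeR adjusted p of these 7 lay between 0.164 and 0.495, and with at least 4 of the 5 markers in a cell between 0.0535 and 0.122. With at least 1% S100a8 and S100a9 in a cell, Thbs1, Ier3, Cstb, Atp6v0c and Ccdc88c were not called (edgeR adjusted p between 0.0537 and 0.0821). The 7 were not called without lung replicate 1, and 5 of them not without lung replicate 4. Without lung replicate 5, or without primary tumor replicate 1-3, Ccl4 alone was called, and without primary tumor replicate 4 Cxcl3 and Ccl4 were. The macrophage complement gene C1qb was called as higher too, at 88.2 and 469 CPM in these neutrophils and 2028 and 2629 CPM in the remaining cells, and the part of macrophage RNA in the other results was not tested.

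Glycolysis and hypoxia genes gave 7 calls in metastasis and 2 in primary tumor, and the same genes without lung replicate 6. The enzymes of the glycolytic chain split glucose to pyruvate, and many of them, together with Hilpda, Ero1l, Higd1a and Mif, are known targets of the hypoxia-inducible factor. In metastasis 7 of 29 genes tested were higher (Tpi1, Pgk1, Pgam1, Hilpda, Ero1l, Mif and Higd1a) and 0 lower, where 1.16% and 0.0612% of all genes were, 25 had a log2 fold change above 0, where 47.0% of all genes did, and the median was 1.34, against -0.04 for all genes. In primary tumor 2 of 29 were higher (Tpi1 and Mif, where 0.398% of all genes were) and 0 lower, 25 were above 0, where 46.7% of all genes were, and the median was 1.33, against -0.05. The summed level of the 33 listed genes was 2872 to 4660 CPM in lung neutrophils, 5978, 8608 and 12582 CPM in metastasis and 9692 and 7043 CPM in primary tumor, with 4892 CPM in the held-out replicate. The remaining cells had the same order, with 2593 to 3236 CPM in lung and 3545 to 11873 CPM in tumor libraries.

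The promoters of 4 of the called genes are shown because the hypoxia-inducible factor is known to bind a short core motif, ACGTG with the common variant GCGTG. They are the 250 bases before the RefSeq start of the gene (GRCm38.p6), 5′ to 3′ on the strand of the gene, and capitals mark these motifs read on either strand, so that ACGTG may also stand as its reverse complement CACGT and the variant as CACGC. In Higd1a the 2 matches share a base.
Pgk1 (chrX:106186850-106187099, plus strand): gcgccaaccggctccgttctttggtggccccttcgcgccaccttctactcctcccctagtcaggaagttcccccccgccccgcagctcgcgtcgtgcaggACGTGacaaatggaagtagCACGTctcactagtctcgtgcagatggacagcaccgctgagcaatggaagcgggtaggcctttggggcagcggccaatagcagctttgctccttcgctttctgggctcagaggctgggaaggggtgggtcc
Pgam1 (chr19:41911621-41911870, plus strand): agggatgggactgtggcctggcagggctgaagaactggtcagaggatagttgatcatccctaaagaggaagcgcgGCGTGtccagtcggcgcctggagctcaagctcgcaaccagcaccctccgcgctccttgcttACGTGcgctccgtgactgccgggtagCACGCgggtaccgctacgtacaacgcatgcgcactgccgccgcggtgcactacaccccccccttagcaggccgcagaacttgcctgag
Ero1l (listed as Ero1a, chr14:45318573-45318822, minus strand): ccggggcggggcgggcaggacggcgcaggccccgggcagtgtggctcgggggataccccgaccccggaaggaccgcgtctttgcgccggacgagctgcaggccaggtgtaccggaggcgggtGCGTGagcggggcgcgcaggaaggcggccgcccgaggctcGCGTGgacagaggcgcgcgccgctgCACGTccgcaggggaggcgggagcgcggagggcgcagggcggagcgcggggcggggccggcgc
Higd1a (chr9:121857797-121858046, minus strand): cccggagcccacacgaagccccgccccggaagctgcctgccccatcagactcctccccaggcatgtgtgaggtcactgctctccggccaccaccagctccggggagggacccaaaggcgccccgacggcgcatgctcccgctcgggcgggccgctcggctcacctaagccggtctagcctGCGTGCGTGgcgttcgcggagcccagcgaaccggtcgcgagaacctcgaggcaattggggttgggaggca
Of the 7 called genes 5 (71.4%) had a match in at least 1 promoter, the 4 shown among them, and Tpi1 and Mif had none in this window. Of the 29 listed genes tested, 26 had a promoter in the table and 23 of these held a match (88.5%), where 41.5% of 27025 genes and 38.6% of all 32851 promoters did. The list holds known targets of the factor, which favors a high share whatever the data show. A match is a description of the letters and not a bound site.

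Tpi1, triosephosphate isomerase (chr6:124810586-124814296, minus strand), was at 72.3, 58.7, 77.3 and 89.7 CPM in lung, 232, 428 and 616 CPM in metastasis and 427 and 293 CPM in primary tumor. It was higher by 2.55 ± 0.38 (log2, edgeR adjusted p = 0.00550) and 2.26 ± 0.43 (edgeR adjusted p = 0.0356), also without lung replicate 6 (edgeR adjusted p = 0.00936 and 0.0345). The lung values lie within a narrow range, and every tumor library, the held-out metastasis replicate 4 (237 CPM) included, lies above them. Mif, a cytokine and tautomerase found in most cells, was at 62.0, 6.52, 28.9 and 60.9 CPM in lung, 359, 1070 and 664 CPM in metastasis and 544 and 329 CPM in primary tumor, with log2 fold changes of 4.16 ± 0.57 (edgeR adjusted p = 0.00308) and 3.44 ± 0.60 (edgeR adjusted p = 0.0320). Pgk1, phosphoglycerate kinase, rose in metastasis by 1.78 ± 0.31 (edgeR adjusted p = 0.0165), from 104 to 125 CPM to 278, 395 and 444 CPM. Hilpda, a lipid droplet protein that inhibits triglyceride breakdown, was at 0, 6.52, 6.08 and 19.6 CPM in lung and 177, 0 and 698 CPM in metastasis, so that its call (4.79 ± 0.87, edgeR adjusted p = 0.0177) sits beside a metastasis library with no UMI. Without metastasis replicate 6, Mif alone of the 7 genes was called in metastasis (edgeR adjusted p = 0.0345, and 0.0847 for Tpi1), and without lung replicate 5 none was (0.0543 for Mif and 0.0563 for Tpi1, edgeR adjusted p).

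Tpi1, Mif, Pgk1, Pgam1 and Higd1a were higher in the remaining cells of the metastasis libraries (means 607, 794, 553, 418 and 235 CPM) than in the neutrophils (425, 698, 372, 373 and 206 CPM). Hilpda (292 against 112 CPM) and Ero1l (179 against 128 CPM) were higher in the neutrophils. In the 50 melanoma-free neutrophils of metastasis replicate 1-3, Tpi1 (194 CPM), Pgk1 (380 CPM), Pgam1 (202 CPM), Hilpda (170 CPM), Ero1l (170 CPM), Mif (364 CPM) and Higd1a (243 CPM) were all above every lung library. Vegfa, Slc2a1 and Ldha, which give the vascular growth factor, the glucose transporter GLUT1 and lactate dehydrogenase A, were not called. Their log2 fold changes in metastasis were 0.88 ± 0.57, 1.85 ± 0.57 and 1.65 ± 0.40 (edgeR adjusted p = 0.561, 0.197 and 0.0769).

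**Figure D4:**
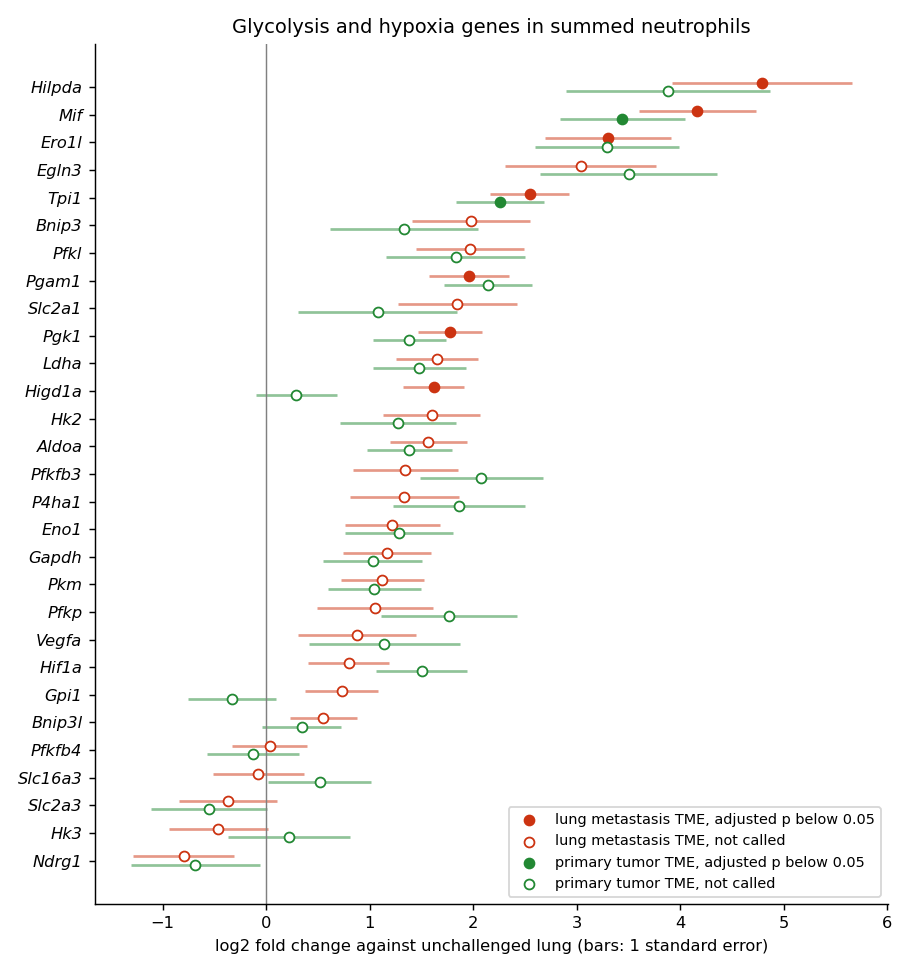
Log2 fold change against unchallenged lung (x axis, bars are 1 standard error) of the 29 glycolysis and hypoxia genes tested (y axis) in neutrophils of metastasis (red) and primary tumor (green). Filled points have an edgeR adjusted p below 0.05, 7 in metastasis and 2 in primary tumor, and 25 of 29 points lie above 0 in either tissue.

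Of a list of genes described for neutrophils inside tumors, 6 of 25 tested were called in metastasis and 3 in primary tumor. In metastasis the 6 were higher (Ccl4, Cstb, Cd63, Lgals3, Gpnmb and Ctsl), where 1.16% of all genes were, and 0 lower. Of the 25, 23 had a log2 fold change above 0, where 47.0% of all genes did, and the median was 1.496, against -0.04. In primary tumor the 3 were higher (Ccl4, Cstb and Thbs1), where 0.398% of all genes were, 23 were above 0, where 46.7% were. The median was 1.81, against -0.05. Without lung replicate 6 the calls numbered 7 and 3, with Spp1, which gives osteopontin, added in both tissues and Thbs1 lost. Cd63, Lgals3, Gpnmb and Ctsl, lysosomal and galectin genes, were higher in the remaining cells of the metastasis libraries than in the neutrophils, and the part of RNA of other cells in these 4 calls was not tested. Cd63 is also one of the genes by which the study identified melanoma cells. In the 50 melanoma-free neutrophils of metastasis replicate 1-3, Cd63 (235 CPM), Lgals3 (1100 CPM), Gpnmb (64.7 CPM) and Ctsl (267 CPM) were above every lung library. The highest lung values were 183, 537, 31.0 and 104 CPM. The means over all neutrophils of the 3 metastasis libraries were 1061, 1444, 407 and 233 CPM. Basp1, a membrane-associated signaling protein on the list, was at 59.3 to 176 CPM in lung and 1015 and 871 CPM in primary tumor, with the groups apart but the threshold just missed (log2 3.34 ± 0.68, edgeR adjusted p = 0.0525). Siglecf, whose protein has been used to mark a tumor-associated neutrophil subset, was at 0 to 58.8 CPM in tumor libraries and 7.52 to 34.1 CPM in lung.

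IL1β is the cytokine for which neutrophils of tumors are often studied. Il1b (chr2:129364570-129371139, minus strand) was at 2883, 7283, 4707 and 1313 CPM in lung neutrophils, 2136, 3276 and 3329 CPM in metastasis and 5765 and 7211 CPM in primary tumor, with 4866 CPM in held-out metastasis replicate 4. Lung overlaps both tumor tissues, and the difference between metastasis and primary tumor did not pass the test (log2 -1.12 ± 0.59 for metastasis against primary tumor, edgeR adjusted p = 0.976). Neither difference from lung passed the test, -0.39 ± 0.51 on the log2 scale for metastasis (edgeR adjusted p = 0.795, -0.66 without lung replicate 6) and 0.73 ± 0.56 for primary tumor (edgeR adjusted p = 0.669), which does not show that the levels are equal. In every library the neutrophils lay above the remaining cells, which held 0 to 757 CPM of Il1b. Il1rn, the IL1 receptor antagonist, was at 80.4 to 248 CPM in lung, 249, 65.8 and 331 CPM in metastasis and 1235 and 388 CPM in primary tumor (2.46 ± 0.57, edgeR adjusted p = 0.0738). Il1r2, the decoy receptor that binds IL1β without signaling, was at 54.7 to 378 CPM in lung, 196 to 577 CPM in metastasis and 632 and 439 CPM in primary tumor (1.45 ± 0.63, edgeR adjusted p = 0.402). Of the 13 IL1 pathway genes tested 0 were called in any comparison, where 1.16%, 0.398% and 0% of all genes were called as higher. The medians against lung were -0.11 in metastasis and 0.59 in primary tumor, against -0.04 and -0.05 for all genes.

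Among 13 cytokine and chemokine genes tested, 1 was called in metastasis (Ccl4) and 2 in primary tumor (Ccl4 and Cxcl3), where 1.16% and 0.398% of all genes were called as higher. In either tissue 10 of 13 were above 0, where 47.0% and 46.7% of all genes were, with medians of 0.30 and 0.91 against -0.04 and -0.05, and the calls were the same genes without lung replicate 6. Cxcl2, a CXCR2 ligand that attracts neutrophils (chr5:90903871-90905938, plus strand), was at 1157, 1584, 1267 and 399 CPM in lung, 1672, 1580 and 5560 CPM in metastasis and 6457 and 5234 CPM in primary tumor. Primary tumor lies above every lung library, metastasis overlaps lung, and neither passed the test (1.48 ± 0.53, edgeR adjusted p = 0.255 and 2.45 ± 0.58, edgeR adjusted p = 0.0819). Ccl3 was at 133 to 403 CPM in lung, 503, 82.3 and 1449 CPM in metastasis and 2177 and 857 CPM in primary tumor (edgeR adjusted p = 0.414 and 0.217). Tnf was at 19.6 to 51.7 CPM in lung, 59.9, 82.3 and 123.1 CPM in metastasis and 58.8 and 73.2 CPM in primary tumor (log2 1.06 ± 0.41 and 0.64 ± 0.53, edgeR adjusted p = 0.293 and 0.701).

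**Figure D5:**
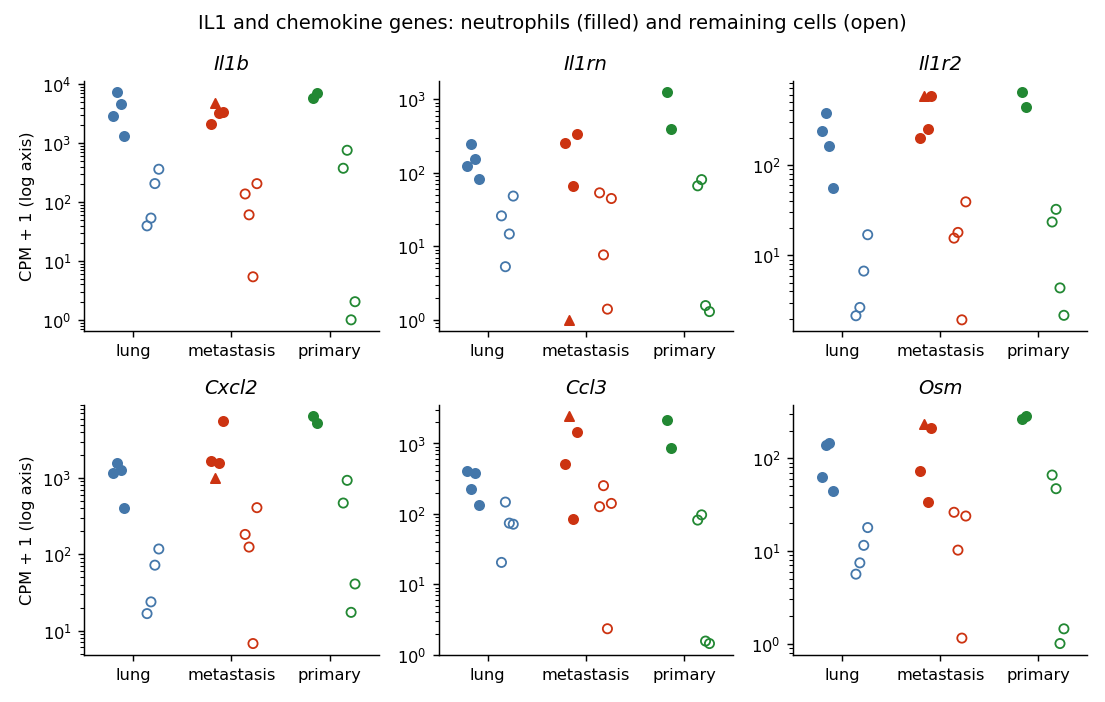
Level of 6 IL1 pathway and cytokine genes (y axis, CPM + 1, log scale) in the neutrophils (filled) and the remaining cells (open) of each library, by tissue. The triangle is metastasis replicate 4, which was not tested. Il1b lies at 1313 to 7283 CPM in the neutrophils of all tissues and at most at 757 CPM in the remaining cells, and Cxcl2 is at 5234 CPM or more in both primary tumor libraries.

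Granule genes, which mark the stage of maturation, gave few calls. Of 9 genes tested on the azurophil and specific granule list 1 was called in metastasis and 0 in primary tumor, where 1.16% and 0.398% of all genes were called as higher. The call is Serpinb1a, which gives the inhibitor of elastase and cathepsin G described above, and no other gene of the list was called with all libraries. Of the 9, 6 and 0 were above 0, where 47.0% and 46.7% of all genes were, and the medians were 0.62 and -1.70, against -0.04 and -0.05, or 1.43 and -0.69 without lung replicate 6. The summed level of the 15 listed genes was 4107 to 11417 CPM in the neutrophils and 4864 to 10117 CPM in the remaining cells of lung. In metastasis replicate 1-3 the remaining cells held more than the neutrophils (15645 against 12188 CPM), as in primary tumor replicates 1-3 (8870 against 4192 CPM) and 4 (7036 against 5044 CPM). The reverse held in metastasis replicates 4, 5 and 6, with 3945, 2979 and 7912 CPM in the neutrophils and 1749, 1103 and 2467 CPM in the remaining cells. In lung replicate 6, 71.7% of the neutrophils had a UMI of Chil3 and 69.3% of Cybb, 2 genes of the list that macrophages express as well, against 6.98 to 17.2% and 20.9 to 32.3% in the other lung libraries, and the part of macrophage RNA was not tested. Ngp, Camp and Ltf, products of immature stages, were uneven: Ngp was at 1075, 0, 14.2 and 44.1 CPM in lung, 917, 16.5 and 1577 CPM in metastasis and 0 and 7.32 CPM in primary tumor. A single neutrophil held 96.4% of the Ngp UMIs of metastasis replicate 6 and 59.5% of those of replicate 1-3, and 3 cells held all of those of lung replicate 1, so these sums describe single cells. Without lung replicate 6 Ltf was called in metastasis as well (log2 5.23, edgeR adjusted p = 0.0178, from 1.48 and 0.586 with it), with 1 neutrophil holding 79.9% of its UMIs in metastasis replicate 6 and 56.7% in replicate 1-3, and no UMI in replicate 5. Mmp8, a neutrophil collagenase, was at 661, 333, 392 and 145 CPM in lung, 340, 313 and 541 CPM in metastasis and 103 and 212 CPM in primary tumor (log2 0.16 ± 0.47 and -1.15 ± 0.59, edgeR adjusted p = 0.925 and 0.504), where the primary tumor values overlap the lowest lung value. Mmp9, the gelatinase of late granules, was at 405 to 1178 CPM in lung, 752 to 1070 CPM in metastasis and 618 and 688 CPM in primary tumor (log2 0.09 ± 0.39 and -0.46 ± 0.46, edgeR adjusted p = 0.953 and 0.748).

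Other groups held no call or few. Over all genes tested 1.16% and 0.398% were called as higher in metastasis and primary tumor. Above 0 were 47.0% and 46.7% of them, with medians of -0.04 and -0.05. Of 18 interferon-stimulated genes tested 0 were called in either tissue, with 12 and 15 above 0 and medians of 0.11 and 0.75. Of 13 MHC class I genes 0 were called, and 0 of 13 were above 0 in metastasis (median -0.52, against 5 of 13 and -0.03 in primary tumor), for example H2-K1 at 909 to 1079 CPM in lung and 757, 346 and 698 CPM in metastasis (edgeR adjusted p = 0.428). MHC class II genes, characteristic of other antigen-presenting cells, had 0 of 6 called in either tissue, with 0 above 0 in metastasis and 6 in primary tumor (medians -2.22 and 0.74), and Cd74 ranged from 202 to 5486 CPM among the lung libraries alone. Of 19 chemotaxis and adhesion receptors 0 were called, among them Cxcr4, at 167 to 547 CPM in lung and 228, 98.8 and 208 CPM in metastasis (log2 -0.997 ± 0.46, edgeR adjusted p = 0.399). Of 13 genes listed as immunosuppressive only Wfdc17 was called, in metastasis, and Cd274, which gives PD-L1, was at 10.3 to 58.7 CPM in lung, 69.5, 32.9 and 144 CPM in metastasis and 118 and 249 CPM in primary tumor (edgeR adjusted p = 0.414 and 0.135). The oxidase and extracellular trap list (12 tested), the NF-kB list (11), the survival list (16), the Fc and complement receptors (10) and the transcription factors (22) had 0 calls in both tissues, with medians between -0.08 and 0.56. Without lung replicate 6, Bcl2l1 of the survival list was called in metastasis and the transcription factor Bhlhe40 in both tissues.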

How the data were processed

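Counts of UMIs per gene and cell were deposited by the authors after Cell Ranger 6.1.1 (GRCm38) and their own filter on cells, and were not normalized. Seurat 3.2.2 is also named in the submitters' processing notes. The deposited log-normalized values were not used. Of 24 library names 18 were mapped to samples by name. Unchallenged lung replicate 1 has the number 2 in its library name and was matched as the remaining lung library, so its replicate number is uncertain and its group is not. Among the mapped names 3 hold the counts of another name and were dropped, and 6 names were not mapped and not used. No doublet caller was run, and doublets were handled only through the 4 excluding genes. In unchallenged lung replicate 6, 3462 cells otherwise selected held an excluding gene, and 1631 with the other markers lacked Csf3r and Cxcr2.

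UMIs of neutrophils were summed per library (60754 to 12098932 in the libraries tested) and fitted in edgeR 4.0.16 on R 4.3.3, in 1 quasi-likelihood model of 9 libraries and 3 tissues with filterByExpr and TMM, and p-values were adjusted by Benjamini-Hochberg over all 3269 genes. CPM are UMIs per 1000000 UMIs of the summed cells. The fit was tested on simulated data. Alternatives were DESeq2 1.42.0 and its size factors, no filter, other cell selections, thinning to 500 UMIs, fewer samples, a replicate block, and several settings chosen after seeing the data. Genes named are up to 8 per direction with the largest change among called genes with at least 20 CPM, no overlap between libraries and a higher level in neutrophils than in the remaining cells of the tissue where they are higher, plus members of the lists. Called genes named outside that rule, such as Smox in metastasis, Sra1 and C1qb, and the melanoma-free cells were chosen after their values were seen. The neutrophils and all lists were chosen with earlier results of these data known. Replicates are libraries as the labels number them, and p-values measure the spread between libraries. Counting intervals and limits cover counting error only. Gene positions are from GENCODE vM21 and promoters from RefSeq. Python 3.11.15 with pandas 2.3.3, numpy 2.4.6, scipy 1.17.1 and matplotlib 3.10.9 was used.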

Additional observations from a re-analysis of the deposited data

Results flagged for a closer look

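In 25 groups of 4 libraries a library far from the others was looked for, which chance gives in about 1 of 20 groups, and all those found were of unchallenged lung. Of the 3 tissues only unchallenged lung has 4 libraries in the tests, with 3 for metastasis and 2 for primary tumor, which favors finding them there. The median mitochondrial share of the neutrophils was 5.21% in replicate 6 and at most 0.603% in the other 3. Atp6v0c was at 434 CPM in replicate 1 and 292 to 315 CPM in the others, still below both primary tumor values. Ngp (1075 CPM) and Camp (455 CPM) stood out in replicate 1, where 3 and 2 cells carry them, and Ltf stood out in replicate 6 at 258 CPM.

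In metastasis replicate 4, the library outside the tests, 21 of the 38 genes higher in metastasis were above every unchallenged lung library. Its 9 neutrophils hold 38019 UMIs.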

How the results depend on the processing

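The calls of metastasis (40), primary tumor (14) and metastasis against primary tumor (0) changed with the setting. They numbered 75, 50 and 2 with DESeq2, 337, 143 and 34 without a filter on low counts, where the median of all genes moved to -0.66 and -1.24 against lung, and 5 and 7 with cells thinned to 500 UMIs (616 genes tested). They were 24 and 33 with the 2 tissues alone, 345 in metastasis with replicates 5 and 6 alone, 4 in primary tumor with 4 of 5 markers, and 28 there without the excluding genes. Chosen after seeing the data, neutrophils with at least 1% S100a8 and S100a9 gave 22 and 6, the same without unchallenged lung replicate 6 gave 88 in metastasis, leaving out the richest neutrophil of each gene and library gave 16 in metastasis, all among the 40, and requiring a higher level in neutrophils than in the remaining cells gave 15 and 9. The run number as a covariate gave 30 and 10. Apart from construction (fewer genes, cells or libraries), the cause was not tested.

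Leaving out each library in turn gave 3 to 52 calls in metastasis, 1 to 26 in primary tumor and 0 to 0 between them. The lowest came without unchallenged lung replicate 5 (3 and 1) and metastasis replicate 6 (3). The metastasis count also fell by over 1.5 times without unchallenged lung replicate 1 (25) or 4 (21). That of primary tumor was 5 and 8 without those 2, 6 without primary tumor replicate 1-3, 4 without primary tumor replicate 4, 25 without metastasis replicate 1-3 and 26 without metastasis replicate 5.

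Replicate numbers pair the tissues only in part. Unchallenged lung came from other mice. By their names, metastasis and primary tumor share mice in replicates 1-3, 5 and 6, and of the libraries tested only the pooled 1-3 do. Deviations of same-numbered libraries had correlations of -0.17 to 0.01, with 0.01 for the pooled 1-3 that share mice. With 2 primary tumor libraries in the fit, these correlations cannot show whether libraries are paired. With the replicate block 31, 17 and 0 genes were called, 17 of the 40 and 5 of the 14 among them. No named gene changed its sign in any alternative. Naming took called genes with large changes and no overlap between libraries, which favors an unchanged sign. Of the values of named genes, 248 kept their side of the threshold and 135 lost it.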
